A study of Mus musculus with 19 samples.

Results

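Alyref KO morulae were compared with non-KO morulae of the same cross across all genes. These are 5 of the 19 single embryos sequenced: 2 labelled Alyref KO and 3 labelled WT or heterozygous, here called non-KO. They were chosen by label alone, and all 53379 gene rows of the table were kept apart from its 92 spike-in rows. Both groups came from in vitro fertilisation between Alyref+/- parents, with B6D2F1 (the first-generation hybrid of C57BL/6 and DBA/2) given as the strain of every embryo. All 5 were cultured in KSOM, a potassium simplex optimised medium, at 37 degrees C under 5% CO2, and were taken as morulae at 96 hours post insemination. The zona pellucida was removed, each embryo was lysed alone, ERCC spike-in RNA was added, and polyA RNA was sequenced after 16 cycles of cDNA amplification. The deletion is in the germ line, so it is not limited to a cell type. An embryo was labelled KO where its own library held no reads at the deleted region. The oocytes grew in Alyref+/- females, and the labels do not say how much maternal Alyref product was left in a KO embryo. Which parents or fertilisation each embryo came from is not given, so p-values measure only the spread between these embryos.

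ALYREF is an adaptor of mRNA export. It binds spliced and capped mRNA as part of the TREX complex, which joins the THO complex to the RNA helicase DDX39B, and hands the mRNA to the export receptor NXF1-NXT1 for passage through the nuclear pore. A morula is the compacted ball of blastomeres that precedes the blastocyst, in which the trophectoderm surrounds the inner cell mass. By this stage the embryo depends on transcription of its own genome, and maternal mRNA has largely been degraded.

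The KO libraries held 7486125 and 15226728 gene counts and the non-KO libraries 13633603 to 19158579, with 24120 to 26194 genes having a count. Mitochondrially encoded genes took 2.51% to 5.29% of gene counts and ERCC rows 0.590% to 1.54% of all counts. In a principal component analysis of log2(CPM + 1) over the 5 morulae, the first component held 42.2% of the variance and separated non-KO morulae 2 (80.1) and 3 (-63.9), with both KO embryos between them at -19 and -1.34. The second component held 29.6% and placed the KO embryos at 39.5 and 53.6 and the non-KO morulae between -40.2 and -16.6. The KO pair had the highest correlation of log2 values among the 10 pairs of embryos, r = 0.967 across genes. Pairs of non-KO morulae had 0.910 to 0.956, and pairs of a KO embryo and a non-KO morula 0.936 to 0.951, within that range. Summed CPM of 4 Y-linked genes (Ddx3y, Eif2s3y, Kdm5d and Uty) was 154 and 220 in the KO embryos and 0.0546, 226 and 0.130 in non-KO morulae 1, 2 and 3. Xist, the RNA that coats the inactive X chromosome, was at 0.929 and 2.21 CPM in the KO embryos and 95.7, 14.8 and 276 CPM in the non-KO morulae. Both KO embryos and non-KO morula 2 thus had Y-linked reads, and non-KO morulae 1 and 3 had almost none.

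**Figure D1:**
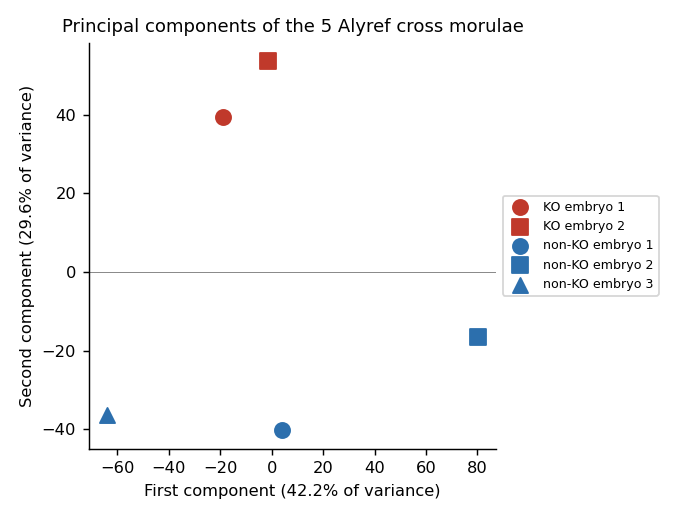
Principal components of the 5 Alyref cross morulae, computed on log2(CPM + 1) of the 18410 tested genes; each point is 1 embryo, red for KO and blue for non-KO, with the replicate shown by the shape. The non-KO morulae spread from -63.9 to 80.1 on the first component, and the KO embryos lie apart at 39.5 and 53.6 on the second.

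Alyref itself (ENSMUSG00000025134.2, GRCm38 chromosome 11, 120592121 to 120598365, minus strand) was at 48.1 and 58.8 CPM in the KO embryos and at 211, 293 and 162 CPM in non-KO morulae 1, 2 and 3. CPM here are counts scaled to a common library total after TMM scaling, edgeR's correction for composition. Both KO values lay below the range of 172 to 303 CPM over the other 14 embryos of the study. Those 14 are 3 non-KO blastocysts of the Alyref cross, 3 non-KO blastocysts of the Gabpb1 cross and 3 WT blastocysts. The rest are 3 morulae labelled Gabpb1 KO and 2 non-KO morulae of the Gabpb1 cross. The log2 change of Alyref was -2.06 (SE 0.30, adjusted p 0.0227), and 362 and 877 reads were still assigned to the gene in the KO libraries. The KO label itself was read from these libraries, so the low level is no separate test of it. Whole-gene counts do not show which exons were read. Each library is 1 whole embryo, so fewer cells of a type and less RNA per cell cannot be told apart here or below.

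The genes on either side of Alyref were not called. Anapc11, a subunit of the anaphase-promoting complex, whose gene runs the other way from 120598421, was at 99.6 and 125 CPM in KO and 116, 152 and 88.7 CPM in non-KO morulae (log2 -0.09, adjusted p 0.947). Arhgdia was at 111 and 119.8 against 179, 107 and 199 CPM (log2 -0.49), and P4hb, the protein disulfide isomerase, at 237 and 147 against 279, 163 and 268 CPM (log2 -0.30). Npb, which encodes neuropeptide B, was below 0.3 CPM in all 5 embryos. Within 5 Mb of Alyref, 146 other genes were tested, with a median log2 change of 0.12. None of them was called by edgeR, where 0.228% of all tested genes were. At an unadjusted p under 0.05, 13 were higher and 9 lower, beside 5.00% and 7.09% of all tested genes.

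Across the 18410 genes tested, 42 (0.228%) were called at an adjusted p under 0.05 by edgeR's quasi-likelihood test with Benjamini-Hochberg adjustment. Of these, 17 (0.0923%) were higher and 25 (0.136%) lower in KO embryos. At an unadjusted p under 0.05, 921 genes (5.00%) were higher and 1305 (7.09%) lower. The called changes were from 1.02 upward in size on the log2 scale. In simulated data the same fit called 8.96% of genes given a log2 change of 1, so small changes are mostly missed. All 42 genes had both KO embryos beyond all 3 non-KO morulae, which 4575 tested genes (24.9%) had. The calls are 39 protein-coding genes, 2 processed pseudogenes and 1 lincRNA. Every adjusted p below comes from this fit, in which all 19 embryos share the estimate of spread.

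The calls rest on that shared spread and on single embryos. edgeR called no gene when only the 5 morulae (1423 genes at an unadjusted p under 0.05) or only the 10 morulae of both crosses (1444) entered the fit, with ERCC scaling (684), without KO embryo 2 (1477) or without non-KO morula 1 (1901), whereas DESeq2 called 490 and limma on log2(FPKM + 0.1) 80. It called 4 without KO embryo 1 (Ing5, Med11, Fbp2 and Spint2, the last of them not called with all 5), 54 without non-KO morula 2, 128 without non-KO morula 3, and Alyref alone with the Y-linked level as a covariate, at log2 -2.21. Without composition scaling the split was 12 higher and 9 lower.

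Among the genes that rose, Ing5 had the smallest p. It encodes a PHD finger subunit of the HBO1 and MOZ/MORF histone acetyltransferase complexes (chromosome 1, 93803965 to 93822101). It was at 106 and 125 CPM in KO and 35.2, 28.8 and 47.3 CPM in non-KO morulae, and the other 14 embryos held 21.3 to 37.8 CPM, so both KO embryos lay above all 17 others. The log2 change was 1.64 (SE 0.22, adjusted p 0.0227). Med11, a subunit of the Mediator complex that links transcription factors to RNA polymerase II, was at 61.5 and 104 CPM against 31, 37.5 and 33.3 CPM (log2 1.29, adjusted p 0.0370). Dcaf7, a WD40 scaffold protein, was at 123 and 112 CPM against 43.4, 30.5 and 49.5 CPM (log2 1.52, adjusted p 0.0227). Each of these 3 genes was higher in both KO embryos than in any other embryo of the study. Zfp950, a zinc finger gene, was at 45.4 and 65.3 CPM against 17.9, 21 and 17.9 CPM (log2 1.55), but other embryos reached 50.03 CPM.

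A second set of rises, grouped after the values were seen, concerns membranes, lipids and trafficking. Insig2, an endoplasmic reticulum protein that holds back SREBP, the activator of sterol synthesis genes, was at 17.1 and 27.4 CPM in KO and 6.82, 3.73 and 6.32 CPM in non-KO morulae (log2 1.98, adjusted p 0.0403). The other 14 embryos held 5.68 to 41.4 CPM with a median of 17.5, and the non-KO morulae lay below 12 of these 14. Ykt6, a SNARE protein of membrane fusion, was at 143 and 107 CPM against 38.9, 39.2 and 53 CPM (log2 1.52), above the 56.1 CPM that was the highest value elsewhere. Pign, which adds ethanolamine phosphate to the GPI anchor, rose by 2.15, and Slc3a2, the heavy chain of CD98 amino acid transporters, by 1.02. Ift20, a subunit of the intraflagellar transport machinery, rose by 1.25, and Smim1, a small membrane protein known for the Vel blood group, by 1.13. Ift20 was at 76.7 and 85.9 CPM in KO and 29.3, 33.2 and 40.4 CPM in non-KO morulae. The other 14 embryos held 43.2 to 86.6 CPM of Ift20 with a median of 72.1, so all 3 non-KO morulae lay below every other embryo and the KO embryos lay within the range.

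The other 7 rises were those of Rras, Kctd10, Nek1, Fam13b, Hint3, Syt8 and the lincRNA Gm4349. Rras, a small GTPase of the Ras family, was at 18.5 and 15.9 CPM in KO and 5.08, 5.43 and 5.73 CPM in non-KO morulae, a log2 change of 1.66 (SE 0.32, adjusted p 0.0490). As with Insig2, the other 14 embryos held 4.14 to 23.4 CPM, with a median of 14.9, near the KO level. Kctd10, an adaptor of the CUL3 ubiquitin ligase, was at 123 and 124 CPM against 45, 40.6 and 40.8 CPM (log2 1.55), and Nek1, a kinase of the NIMA-related family, at 26.3 and 36 CPM against 11, 11 and 9.64 CPM (log2 1.56). Fam13b was at 49.4 and 32.1 CPM against 12.3, 9.50 and 15.6 CPM (log2 1.70). In each of these 3 genes the KO values were more than double the highest non-KO morula. For Nek1, however, the other 14 embryos held 11.9 to 31.2 CPM with a median of 24.2, above all 3 non-KO morulae and around KO embryo 1. Hint3, a histidine triad hydrolase, was at 86.9 and 147 CPM against 44.5, 39.6 and 54.1 CPM (log2 1.34), with 42.4 to 127 CPM elsewhere, and the non-KO morulae lay below 13 of those 14 embryos. The lincRNA Gm4349 had the largest rise with a mean FPKM of 2 or more, from 6.88, 19.3 and 24.4 CPM to 65 and 99.2 CPM (log2 2.29). Syt8, a synaptotagmin, had 38 reads in the 2 KO libraries and 1 in the 3 non-KO libraries, a ratio of CPM of 77.0 with a 95% exact counting interval from 13 to 3119. The other 14 embryos held 0.0674 to 2.86 CPM of Syt8 with a median of 0.800, all above the non-KO morulae. The interval covers counting error only, and the fitted log2 change of 5.81 depends on how the model treats counts of 0.

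**Figure D2:**
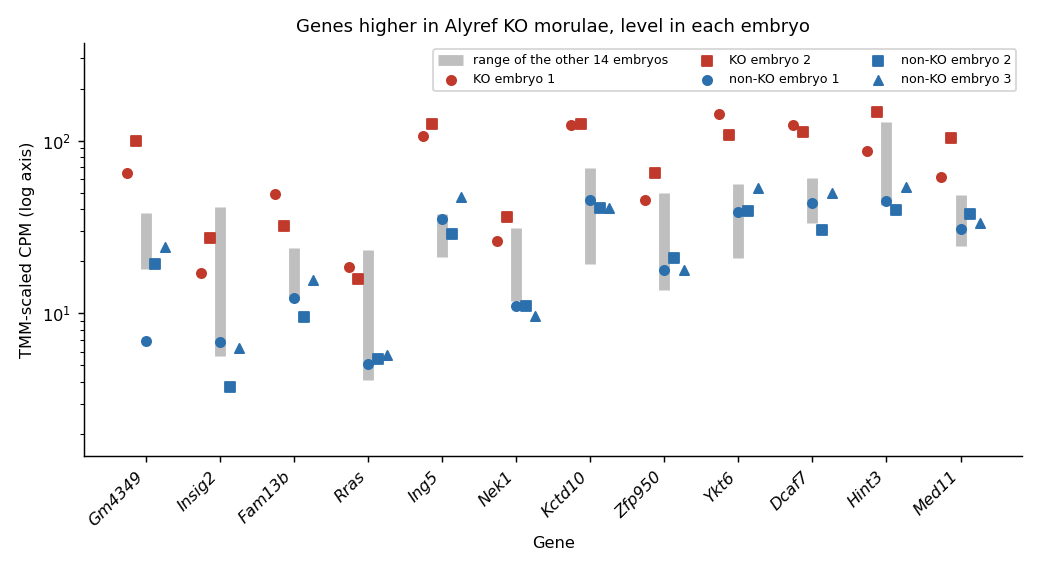
Level of the 12 largest called rises with a mean FPKM of 2 or more, in TMM-scaled CPM on a log axis; red marks are KO embryos, blue marks non-KO morulae, and the grey bar spans the other 14 embryos of the study. For Ing5 the KO embryos, at 106 and 125 CPM, stand above the bar, whereas for Insig2 and Rras they lie within it.

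Of the genes that fell, Gdf3, Hmga2 and L1td1 are known from pluripotent cells. Gdf3, a TGF-beta family ligand that acts with Nodal (chromosome 6, 122605403 to 122610087), was at 5.84 and 4.83 CPM in KO and 82, 21.7 and 99.4 CPM in non-KO morulae. The other 14 embryos held 23.7 to 87.8 CPM, and the log2 change was -3.67 (SE 0.65, adjusted p 0.0370). Both KO values lay below every other embryo, although non-KO morula 2 held far less Gdf3 than the other non-KO morulae. Hmga2, an AT-hook chromatin protein and a target of let-7 miRNAs, was at 22 and 12.8 CPM in KO and 89.7, 181 and 130.1 CPM in non-KO morulae, a log2 change of -2.95 (SE 0.52, adjusted p 0.0370). L1td1, an RNA-binding protein derived from a LINE-1 element (chromosome 4, 98726734 to 98738480), was at 9.42 and 6.24 CPM against 30.1, 57.9 and 78.6 CPM (log2 -2.84), and at 24.9 to 151 CPM elsewhere. All 3 were below every one of the 17 other embryos in both KO libraries.

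Several genes that fell have roles in RNA and nucleotides, a grouping made after the values were seen. Fam103a1 encodes the activating subunit of the mRNA cap methyltransferase (RAMAC), and was at 39.95 and 47.6 CPM in KO and 177, 146 and 100.3 CPM in non-KO morulae (log2 -1.68, SE 0.28, adjusted p 0.0363). Hnrnpf, an hnRNP protein of splicing regulation, was at 98.1 and 166 CPM against 373, 276 and 262 CPM (log2 -1.20, adjusted p 0.0493). Dut, the dUTPase that keeps uracil out of DNA, was at 111 and 141 CPM against 250.2, 287 and 318 CPM (log2 -1.18). Nudt2, a hydrolase of diadenosine tetraphosphate, was at 25.4 and 32 CPM against 72.7, 68.1 and 61.7 CPM (log2 -1.23). In these 4 genes, too, both KO values lay below all other embryos. Thap3, a THAP-domain zinc finger gene, fell by 1.74 and Zfp808, another zinc finger gene, by 1.18.

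A further group, again made after the values were seen, holds genes of proteins that act in or on mitochondria. The enzyme genes Fbp2, Sarm1 and Sgpp1 are given after them and are not counted as mitochondrial here. Apopt1, an assembly factor of cytochrome c oxidase, was at 8.89 and 6.24 CPM in KO and 23.3, 25.9 and 31.3 CPM in non-KO morulae. Atpaf1, an assembly factor of the ATP synthase, was at 17.7 and 13.5 CPM against 51.5, 34.6 and 50.9 CPM. Etfrf1 and Etfbkmt, both modifiers of the electron transfer flavoprotein, were at 17.4 and 14.6 CPM against 54, 46.7 and 42.5 CPM and at 6.11 and 6.44 CPM against 18.3, 12 and 18.3 CPM. Their log2 changes were -1.83, -1.55, -1.58 and -1.37, with adjusted p from 0.0348 to 0.0490. Fbp2, a fructose-1,6-bisphosphatase of gluconeogenesis, was at 388 and 181 CPM in KO and 995, 1164 and 948 CPM in non-KO morulae, with 704 to 1274 CPM elsewhere (log2 -1.87, adjusted p 0.0370). Sarm1, an NAD hydrolase known from axon degeneration, was at 4.78 and 3.55 CPM against 19.1, 16.6 and 19.99 CPM (log2 -2.16), and Sgpp1, a sphingosine-1-phosphate phosphatase, fell by 1.42. Sgpp1 was the 1 called fall whose KO values overlapped the other embryos, which reached down to 51.6 CPM.

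Among the remaining falls Tmem45b had the greatest size. This transmembrane protein gene was at 0.929 and 1.94 CPM in KO and 20.2, 16.6 and 41.8 CPM in non-KO morulae (log2 -4.12, SE 0.75, adjusted p 0.0390). Tmem160, a small membrane protein gene, was at 2.52 and 2.55 CPM against 7.42, 11.3 and 14.6 CPM (log2 -2.12). Spryd4, a SPRY-domain gene, was at 8.50 and 13.7 CPM against 55.4, 23.7 and 43.6 CPM (log2 -1.88), and the olfactory receptor gene Olfr482 at 5.97 and 6.30 CPM against 27.1, 24.4 and 16.3 CPM (log2 -1.88). The processed pseudogene Gm12372 was at 9.69 and 12.7 CPM against 43.9, 45.2 and 33 CPM (log2 -1.85). Groups did not overlap in any of these genes, as the rule for giving their values per embryo required. The same held for 24.9% of all tested genes. Ubald1, a UBA-like domain gene, fell by 1.57 and the pseudogene Gm14335 by 1.66. Pseudogene counts can hold reads of their near-identical parent genes. The strand setting of the counting is not given in the sources used here, and 19 of the 42 called genes overlap another gene, so reads of Spryd4 and Gls2, of Kctd10 and Myo1h, or of Fam13b and Pkd2l2 cannot be told apart.

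**Figure D3:**
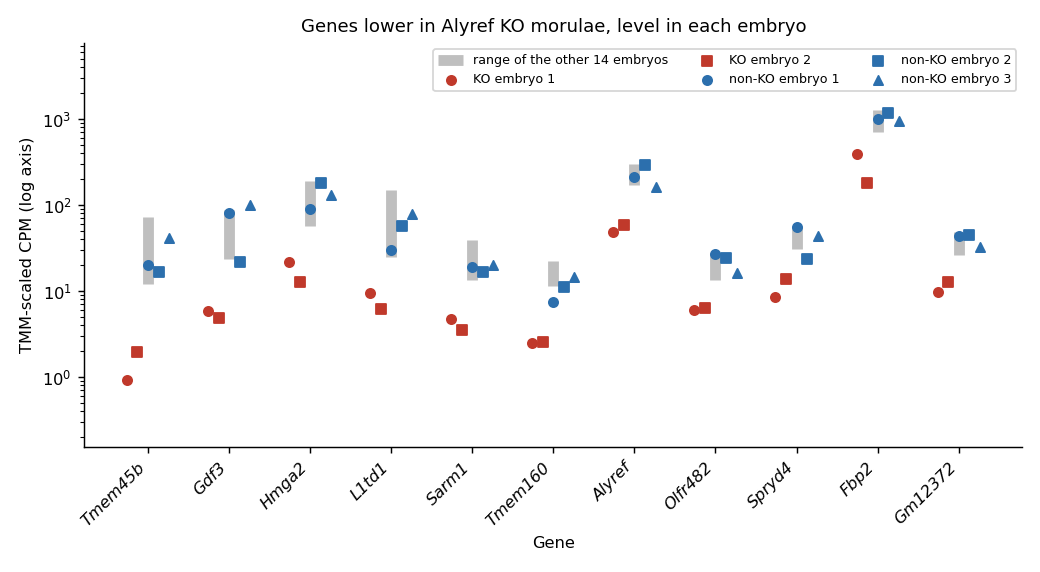
Level of called falls of the greatest size with a mean FPKM of 2 or more, in TMM-scaled CPM on a log axis; red marks are KO embryos, blue marks non-KO morulae, and the grey bar spans the other 14 embryos of the study. Both KO marks lie below the bar for every gene drawn, such as Hmga2 at 22 and 12.8 CPM against a lowest value of 56.5 CPM elsewhere.

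The 14 embryos outside the Alyref morulae took no part in the fold change, though they entered the shared spread. Most are blastocysts and others are labelled Gabpb1 KO, so they differ from the Alyref morulae in stage, cross or genotype label. For 34 of the 42 called genes both KO embryos lay beyond all 17 other embryos, against 1140 (6.19%) of all tested genes, which is 24.9% of the 4575 that did not overlap among the 5 morulae. This held for 24 of the 25 falls and 10 of the 17 rises. The 7 rises without it were Syt8, Insig2, Rras, Nek1, Zfp950, Hint3 and Ift20. In 3 of them, Syt8, Nek1 and Ift20, all 3 non-KO morulae lay below all 14 embryos of the other groups, and in Hint3, Insig2 and Rras they lay below 13, 12 and 11 of the 14. In Zfp950 they lay below 13 of the 14.

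The Gabpb1 cross gave 3 morulae labelled Gabpb1 KO and 2 non-KO morulae, a second pair of groups with no embryo shared with the first. Gabpb1, which encodes the beta subunit of the GABP transcription factor, was at 78.7, 261 and 151 CPM in the morulae labelled Gabpb1 KO and at 94.4 and 83.8 CPM in their non-KO siblings. It was below both siblings in 1 of those 3, and directions drawn from that cross rest on its labels. The difference between the KO effects of the crosses passed the test for 167 (0.907%) of all genes and for 20 of the 42. They include Gdf3, at -3.67 in the Alyref cross and 0.39 in the Gabpb1 cross (difference -4.06, adjusted p 0.0349). Hmga2 was at -2.95 and 0.94 (difference -3.89, adjusted p 0.0244) and Ing5 at 1.64 and -0.21 (difference 1.84, adjusted p 0.0223). Insig2 was at 1.98 and -1.47 (difference 3.45, adjusted p 0.0112). The members were called in 1 arm of this difference, so their share is a description. The 167 became 0 when the 10 morulae alone entered the fit (2004 at an unadjusted p under 0.05), 10 with ERCC scaling, 19 and 24 without KO embryos 1 and 2, 49 without non-KO morula 1 and 707 without non-KO morula 3. For L1td1 (-2.84 and -0.08) and Tmem45b (-4.12 and -0.74) the difference missed the threshold, with adjusted p of 0.0611 and 0.0965.

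The mRNA export list holds TREX, its partners, nuclear pore export factors and the exon junction complex, which marks spliced mRNA and recruits ALYREF. Of its 40 tested genes, Alyref alone was called by edgeR, whereas DESeq2, limma with voom and embryo weights, and edgeR without non-KO morula 3 also called Cetn2 (adjusted p 0.0155, 0.0192 and 0.0413). By edgeR 4 were higher and 5 lower at an unadjusted p under 0.05, and the median log2 change was -0.09 against -0.04 over all tested genes. It was 0.05 without KO embryo 2 and 0.02 without non-KO morula 2. Thoc2, the scaffold of the THO complex, was at 121 and 109 CPM in KO and 228, 171 and 244 CPM in non-KO morulae (log2 -0.90, adjusted p 0.232). Cetn2, a centrin that is also a subunit of the TREX-2 complex, was at 28.1 and 44.1 CPM against 11.1, 9.16 and 20.2 CPM (log2 1.42, adjusted p 0.127), and like Thoc2 it is X-linked. Magohb, a core protein of the exon junction complex, was at 37.3 and 57.7 CPM against 32.6, 27.8 and 27.5 CPM (log2 0.70, adjusted p 0.286). The groups did not overlap for these 3 genes, as for 24.9% of all genes.

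No gene of the 3 lineage lists was called by edgeR with all 5 morulae, while DESeq2 called Utf1 and Dppa5a, and limma with voom and embryo weights called Utf1, Gata2 and Dsc2. Of 20 epiblast and pluripotency genes, 15 were lower (75.0%, against 52.5% of all tested genes), 4 of them at an unadjusted p under 0.05, and the median was -0.35. Dppa5a, a KH-domain protein of pluripotent cells, was at 1335 and 1034 CPM in KO and 1918, 2075 and 2533 CPM in non-KO morulae, and Pou5f1, the pluripotency factor OCT4, at 80.6 and 57.9 CPM against 135, 95.5 and 113 CPM. Utf1, a chromatin protein of pluripotent cells, was at 30.8 and 9.25 CPM against 76.9, 39.3 and 160.1 CPM. Their adjusted p were 0.166, 0.285 and 0.139. Nanog, in contrast, was at 514 and 481 CPM in KO and 376, 285 and 363 CPM in non-KO morulae. The 17 primitive endoderm genes had a median of -0.23 and the 24 trophectoderm genes one of -0.01. At an unadjusted p under 0.05 there were 1 and 3 of them. Of the 24 trophectoderm genes, 11 were higher and 13 lower. Cldn6 was at 2.92 and 2.82 CPM in KO and 8.63, 10.2 and 41.02 CPM in non-KO morulae (edgeR adjusted p 0.254). Cldn4 was at 196 and 113 CPM against 198, 206 and 249 CPM (edgeR adjusted p 0.521). Gata6, the early primitive endoderm factor, was at 123 and 178 CPM against 121, 129 and 128 CPM, whereas Foxa2 had at most 1 read and Sox7 at most 18 in a library.

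Non-KO morula 3 had the highest level of some genes of these lists and the lowest of others. Dsc2, a desmosomal cadherin of the trophectoderm, had 32.5 CPM there, 21.5 and 17.3 CPM in the KO embryos, and 0.109 and 0 CPM in non-KO morulae 1 and 2. Sparc, a matrix protein of primitive endoderm, was at 21.9 and 7.38 CPM in KO and 5.02, 3.73 and 79.6 CPM in non-KO morulae. Aqp3, of the trophectoderm list, was in contrast at 256 and 183 CPM in KO and 223, 323 and 105 CPM in non-KO morulae. Dab2, of the primitive endoderm list, was at 432 and 385 CPM against 643, 487 and 306 CPM. Summed CPM of the trophectoderm list was 3116 and 2018 in the KO embryos and 2187, 1511 and 3454 in the non-KO morulae, so the groups overlapped. That of the epiblast list was 4208 and 4328 against 4913, 6433 and 5528. Without non-KO morula 3 the median of the trophectoderm list was 0.56, with 6 genes higher and 1 lower at an unadjusted p under 0.05, and edgeR called 2 of them, Krt7 and Dsc2. That of the primitive endoderm list turned to 0.14, with 3 genes higher and 1 lower. Without KO embryo 2 the trophectoderm median was 0.21. In the trophectoderm sum the non-KO morulae thus spread over more than the range of the KO embryos. The part of these differences in the called genes was not tested.

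The lists of partners of Gdf3, Hmga2, L1td1 and Ing5 were chosen because those genes are called, and edgeR called no other member with all 5 morulae. DESeq2 also called Foxh1 (adjusted p 0.0203), Ing3 (0.0447) and Ing4 (0.00892), and limma with voom and embryo weights also called Ing4 (0.0292) and Jade1 (0.0429). Without non-KO morula 3 edgeR also called Ing4 (adjusted p 0.0413). Of 15 genes of Gdf3, Nodal and Lefty signalling, Gdf3 was called, and Foxh1, the transcription factor of Nodal signalling, was at 1.86 and 1.21 CPM in KO and 7.81, 2.12 and 24.7 CPM in non-KO morulae (adjusted p 0.200). The median of that list was -0.38, and 0.54 without non-KO morula 3. Of 12 genes around Lin28, Hmga2 and L1td1, the last 2 were called and the median was -0.18. Igf2bp2, an mRNA-binding protein, was at 88.7 and 69.7 CPM against 119, 114 and 130.2 CPM (adjusted p 0.351). Of 16 Ing and HBO1/MOZ complex genes, Ing5 was called, with a list median of -0.11. Ing4 was at 9.03 and 9.86 CPM against 22.5, 22.6 and 14.3 CPM (adjusted p 0.108), Ing3 at 39.4 and 31.7 CPM against 25.2, 19.4 and 14.8 CPM (adjusted p 0.180), and Jade1, the scaffold of HBO1 complexes, at 19.5 and 17.8 CPM against 45.9, 38.3 and 39.3 CPM (adjusted p 0.250). Ing3, like Ing5, was higher in both KO embryos than in all 17 others, and Ing4 and Jade1 were lower than in all 17. Both KO embryos lay beyond all 17 others, in either direction, for 6.19% of all tested genes.

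Of 28 maternal oocyte mRNAs, 11 were tested, and 10 of these were lower (90.9%), 2 of them at an unadjusted p under 0.05. The median was -0.62 and stayed between -0.71 and -0.30 when any 1 of the 5 morulae was left out. Ooep, a protein of the subcortical maternal complex, was at 11.5 and 8.45 CPM in KO and 41.8, 38.4 and 60.9 CPM in non-KO morulae (adjusted p 0.129). Khdc3, of the same complex, was at 705 and 703 CPM against 1219, 928 and 1450.5 CPM (adjusted p 0.188), and Dppa3, a maternal factor that protects DNA methylation, at 2747 and 3431 CPM against 4639.7, 4226 and 3115 CPM (adjusted p 0.693). None of the 11 was called by edgeR, whereas DESeq2 called Ooep, and limma with voom and embryo weights called Khdc3. The 15 two-cell stage genes had a median of 0.27, which ran from -1.46 to 2.23 without 1 embryo. Zfp352 and Gm4340, from multicopy families whose reads can be shared, were at 28.6 and 19.1 CPM in KO embryo 2, and each was below 0.7 CPM in the other 4 morulae. Tcstv3, another two-cell gene, stood highest in a non-KO embryo, at 4.11 and 15 CPM in KO and 2.40, 148 and 0.195 CPM in non-KO morulae. Summed CPM of the list was 723 and 1003 in KO and 308, 1380.2 and 83.2 in non-KO morulae, highest in non-KO morula 2. None of the 15 was called by edgeR with all 5 morulae; limma with voom and embryo weights called Tdpoz4 and Pramef25.

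Stress, death and division genes were not called by edgeR, whereas DESeq2, and limma with voom and embryo weights, each called Bad and Birc5, and the latter also Ddit4. Of 24 p53 targets, 14 were higher, 2 of them at an unadjusted p under 0.05, with a median of 0.07 (-0.10 without non-KO morula 3). Cdkn1a, the cell cycle inhibitor p21, was at 544 and 614 CPM in KO and 186, 331 and 132 CPM in non-KO morulae. The 14 other embryos ran from 7.44 to 461 CPM, so both KO embryos lay above all 17, but the adjusted p was 0.514. Of all tested genes, 6.19% had both KO embryos beyond all 17, in either direction. Ddit4, an inhibitor of mTORC1, was at 21.6 and 48.4 CPM against 3.98, 16.4 and 1.63 CPM (adjusted p 0.341), and Tnfrsf10b, a TRAIL death receptor, at 49.9 and 60.3 CPM against 27.6, 21.1 and 15.2 CPM (adjusted p 0.212). Of 18 apoptosis genes, 14 were lower, and 2 were higher and 4 lower at an unadjusted p under 0.05. Bad, a BH3-only protein that promotes death, was at 61.7 and 71.1 CPM against 38.8, 34.9 and 40.6 CPM (adjusted p 0.0895). Birc5, which encodes survivin, was at 294 and 242 CPM against 457, 359 and 461 CPM (adjusted p 0.173). Of 25 G2/M genes, 17 were lower, and 1 was higher and 3 lower at an unadjusted p under 0.05. Their median was -0.16 (0.01 without non-KO morula 2). The higher gene, Cdc25a, was at 88.7 and 77.1 CPM against 56.4, 28.1 and 52.0 CPM (adjusted p 0.322). Top2a, the DNA topoisomerase of dividing cells, was at 118 and 78.2 CPM against 117, 263 and 234 CPM, where KO embryo 1 and non-KO morula 1 lay side by side.

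**Figure D4:**
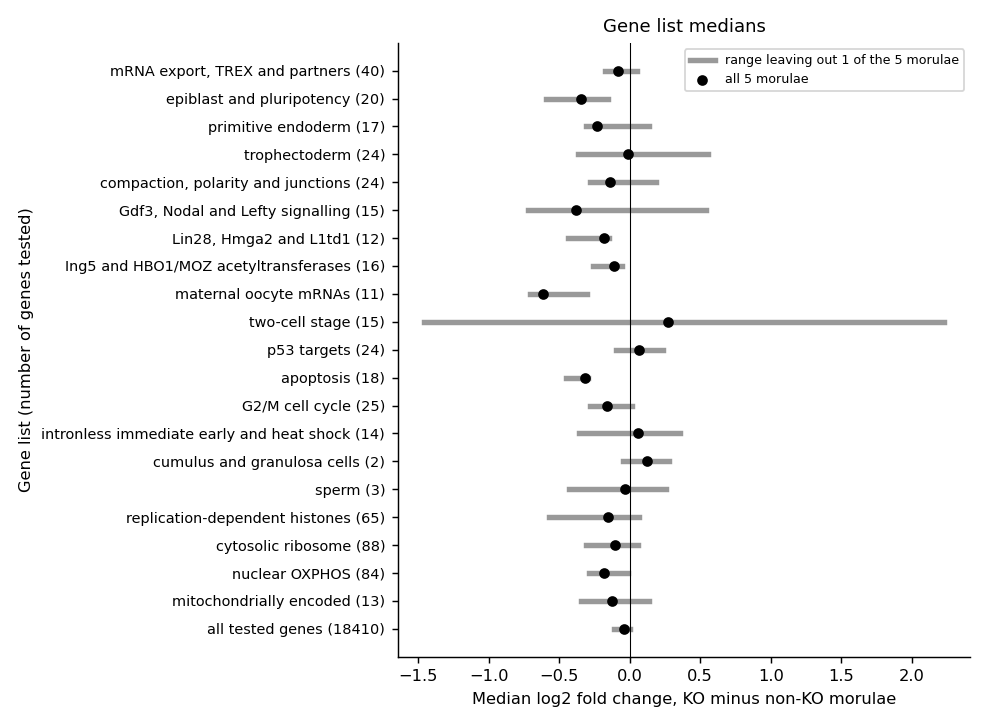
Median log2 change, KO minus non-KO morulae, of each gene list, with the number of genes tested in brackets; the black point uses all 5 morulae and the grey bar spans the medians with any 1 of them left out. The maternal oocyte list, at -0.62, stays below 0 throughout, whereas the two-cell list spans -1.46 to 2.23; for 14 of the 20 lists the median changes sign when 1 embryo is left out.

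Energy and translation genes showed small shifts and no call by edgeR with all 5 morulae, whereas DESeq2 called Uqcrfs1, Rps20 and Rpl22l1, and limma with voom and embryo weights these 3 and Rpl39, Rpl10 and Rps4x. Of 84 nuclear OXPHOS genes, which encode the respiratory chain and ATP synthase, 55 were lower, 16 of them (19.05%, against 7.09% of all genes) at an unadjusted p under 0.05. At that threshold 2 were higher (2.38%, against 5.00% of all genes). The median of -0.18 became -0.01 without non-KO morula 3. Uqcrfs1, the Rieske iron-sulfur protein of complex III, was at 108 and 136 CPM in KO and 279, 195 and 339 CPM in non-KO morulae (adjusted p 0.0877), and Cox6c, a subunit of complex IV, at 443 and 563 CPM against 773, 786 and 832 CPM (adjusted p 0.207). The 13 mitochondrially encoded mRNAs had a median of -0.13, with none at an unadjusted p under 0.05, and 0.14 without non-KO morula 3. Of 88 cytosolic ribosomal protein genes, 61 were lower with a median of -0.10, which was 0.06 without KO embryo 1. Rps20 was at 760.5 and 918 CPM against 506, 527 and 591 CPM (adjusted p 0.174) and Rpl29 at 127 and 153 CPM against 241, 289.6 and 204 CPM (adjusted p 0.226), opposite in direction. The 65 replication-dependent histone genes, whose mRNAs normally lack a polyA tail, had a median of -0.15, with 0.07 without KO embryo 1 and -0.58 without KO embryo 2. The 24 compaction, polarity and junction genes had a median of -0.14, which turned to 0.19 without non-KO morula 3. Within them the tight junction protein gene Tjp1 was at 14.5 and 20.2 CPM against 29.6, 32.1 and 38.6 CPM (adjusted p 0.276) and F11r, the junctional adhesion molecule A, at 273 and 208 CPM against 174, 139.6 and 172 CPM (adjusted p 0.254).

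Most markers of other cells that could cling to an embryo had few or no reads, with 3 exceptions, Amhr2, Hsd17b1 and Odf2. Of 15 cumulus and granulosa cell genes, 9 had no read in any of the 5 morulae, among them Fshr, Inha and Cyp19a1, and 2 were tested, with a median of 0.13. Summed CPM of that list was 33.3 and 28.3 in KO and 33.9, 30.3 and 20.7 in non-KO morulae, nearly all from Amhr2 (121 to 316 reads a library) and Hsd17b1 (128 to 304 reads). Of 11 sperm genes, 3 were tested, with a median of -0.04, and Tnp1, Smcp and Akap4 had no read in any of the 5. Odf2, a protein of the sperm tail and of centrosomes, was at 52.3 and 32 CPM in KO and 45.6, 45 and 38.7 CPM in non-KO morulae, with 394 to 836 reads a library. The groups overlapped for Odf2 and Amhr2. For Hsd17b1 they did not, at 16.99 and 16.96 CPM in KO and 16.6, 10.9 and 9.70 CPM in non-KO morulae (log2 0.45, edgeR adjusted p 0.843). The same held for 24.9% of all tested genes. The 14 tested intronless immediate early and heat shock genes had a median of 0.06, with none at an unadjusted p under 0.05.

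X-linked genes were lower as a group in the KO embryos. The 774 tested X genes had a median log2 change of -0.31, and 66.3% were lower, against a median of -0.03 over autosomal genes. Both KO embryos had Y-linked reads and non-KO morulae 1 and 3 had 1 and 2 of them. With the Y-linked level as a covariate the X median was -0.18. With non-KO morulae 1 and 3 left out together, so that all 3 embryos compared had Y-linked reads, it was -0.10 with 54.5% lower, beside an autosomal median of 0.05. Among autosomes the medians ran from -0.16 on chromosome 12 to 0.07 on chromosome 1. Of the 4 Y-linked genes summed above 3 were tested, with a median of 1.26 and none at an unadjusted p under 0.05; the 14 tested genes of the Y chromosome had a median of 1.65, as 1 of 3 non-KO but both KO embryos had such reads.

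**Figure D5:**
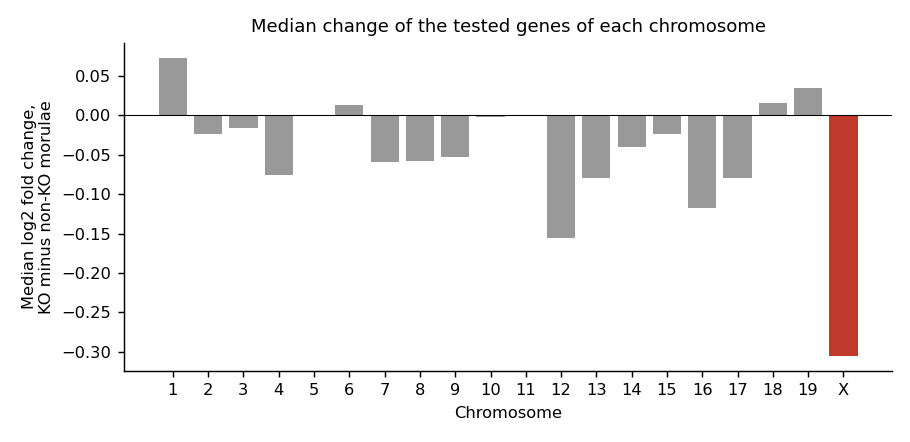
Median log2 change, KO minus non-KO morulae, of the tested genes of each chromosome, with autosomes in grey and the X chromosome in red. The X bar reaches -0.31, and the autosomes lie between -0.16 and 0.07.

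ALYREF is deposited on mRNA in part through splicing, so protein-coding genes were also described by the exons of their transcript with the most exons. A value was found for 87.5% of the tested protein-coding genes. The 365 genes with 1 exon had a median log2 change of -0.16, with 63.3% lower and none called by edgeR. The 1049 genes with 2 to 3 exons had a median of -0.20, with 59.9% lower and 9 called (0.858%). For 4777 genes with 4 to 10 exons the median was -0.03 with 25 called (0.523%), and for 3887 with 11 or more it was -0.02 with 3 called (0.0772%). Over all protein-coding genes the median was -0.04, 53.1% were lower and 39 (0.339%) were called, beside 0.228% of all tested genes. The medians of the first 2 classes moved to -0.10 and -0.21 without KO embryo 1 and to -0.34 and -0.35 without KO embryo 2, beside -0.10 and -0.02 for genes with 4 or more exons. With limma on log2(FPKM + 0.1) they were -0.02 and -0.03, beside 0.10. Over 5 classes of equal size the medians ran from -0.07 to -0.01 by GC content, and from -0.09 for the shortest genes to -0.01 for the longest by exonic length.

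The ratio of embryo RNA to spike-in RNA did not separate the groups. The log2 ratio of gene counts to ERCC counts was 6.94 and 6.81 in the KO embryos and 7.09, 6.0 and 7.40 in the non-KO morulae, 6.87 ± 0.0892 (SD, n = 2) against 6.83 ± 0.735 (SD, n = 3). The difference was 0.05 (exact two-sided permutation p = 1, where 10 splits allow no p below 0.1). The KO values lay inside the non-KO range.

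Among genes at an unadjusted p under 0.05, the 6 with the highest mean CPM, a level that also grows with transcript length, were all lower in KO and none was called. Cnbp, a nucleic acid binding protein of translation, was at 1269 and 1208 CPM in KO and 2887, 2875 and 1462 CPM in non-KO morulae (log2 -0.96, adjusted p 0.276). The purine salvage enzyme gene Hprt, on the X chromosome, was at 2499.5 and 2820.0 CPM against 6021, 4263 and 3221 CPM (log2 -0.76), and Slc25a5, an ADP/ATP carrier also on the X, at 728 and 968 CPM against 1600.1, 973 and 1643 CPM (log2 -0.73). H2afz, the histone variant H2A.Z, was at 771 and 884 CPM against 964, 1286 and 1485 CPM (log2 -0.59), and Actg1, cytoplasmic gamma-actin, at 1212 and 992 CPM against 1642, 1375 and 1849 CPM (log2 -0.56). Dppa5a is given above. The groups did not overlap for these 6 genes, as for 24.9% of all tested genes.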

How the data were processed

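Single-embryo polyA RNA-seq was analysed from 1 table with a column per embryo. The authors deposited whole-number counts per gene, although the table is announced as FPKM; per the submitters' processing notes, Trimmomatic, Trim Galore, cutadapt, STAR and featureCounts were used with mm10. Versions and the strand setting are not given in the sources used here. Of 53379 gene rows, 50604 have an identifier and coordinates identical to GENCODE M21.

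Genes with FPKM (computed from counts and the deposited exon length) of 1 or more in at least 2 of 19 embryos were tested: 18410 of 39262 with any count. They were fitted with edgeR 4.0.16 under R 4.3.3, with TMM scaling, 1 mean for each of 7 groups and the quasi-likelihood F test, with Benjamini-Hochberg adjustment over all genes tested. SE follows from the log2 change and its F value (F is the square of their ratio). CPM use the TMM-scaled gene total, and whether groups overlap was read from these CPM (for the rule on named genes, from FPKM). Gene counts per embryo were 7486125 to 19158579 in the 5 morulae; the labels name no molecular identifiers, so a counting interval covers counting error only. The spike-in ratio was compared by an exact permutation test. No gene set test was made: lists are described by counts and medians.

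The members and lists were chosen with earlier results of these data known. The lists cover mRNA export, epiblast and pluripotency, primitive endoderm, trophectoderm, compaction, Gdf3/Nodal, Lin28/Hmga2/L1td1, Ing5/HBO1, maternal oocyte, two-cell, p53, apoptosis, G2/M, intronless, cumulus, sperm, Y-linked, histone, ribosomal, OXPHOS and mitochondrially encoded genes. Values per embryo are given for Alyref, for the 12 largest called rises and falls that did not overlap between the groups and had a mean FPKM of 2 or more, for called list members and up to 4 others with the smallest p per list, for the 2 genes nearest Alyref on each side, and for the 6 with the highest CPM at an unadjusted p under 0.05. Others named were chosen after their values were seen, and some genes that the rule names are not reported here. The fit was checked on simulated data. It called 8.96% of genes given a log2 change of 1, 64.2% of those given 2 and 90.9% of those given 3, with 5 wrong calls. Alternatives were other scalings, filters, covariates, tools (DESeq2 1.42.0, limma 3.58.1), samples in the fit and leaving out embryos.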

Additional observations from a re-analysis of the deposited data

Results flagged for a closer look

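The KO effects of the Alyref and Gabpb1 crosses differed for 167 genes by edgeR's interaction contrast. Among the named genes that passed, the difference (Alyref cross minus Gabpb1 cross, log2) was below 0 for Gdf3 (-4.06), Hmga2 (-3.89), Tmem160 (-2.46), Olfr482 (-2.43), Apopt1 (-2.43), Gm12372 (-2.42), Gm14335 (-2.35), Fam103a1 (-2.10), Fbp2 (-2.07), Sgpp1 (-1.86), Alyref (-1.77), Khdc3 (-1.54), Nudt2 (-1.46) and Dut (-1.41). It was above 0 for Syt8 (7.16), Insig2 (3.45), Rras (2.60), Kctd10 (2.10), Ing5 (1.84), Hint3 (1.77) and Med11 (1.71). Khdc3 was not called in the Alyref cross. Against the 14 embryos of the other groups, the non-KO morulae lay below all 14 for Syt8, below 13 for Hint3, below 12 for Insig2 and below 11 for Rras. No group has 4 or more embryos, so single embryos were not tested as far from their group.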

How the results depend on the processing

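All 42 called genes kept their direction in every alternative that could be computed (797 values). All 42 had both KO embryos beyond all 3 non-KO morulae to begin with. A change of direction was therefore hardly possible, and the kept direction is no separate support. Of those values, 333 stayed past the threshold while 464 fell short of it. Each gene passed in 4 to 13 of 19 alternatives. The count of 42 became 0 with the 5 or the 10 morulae alone and with ERCC scaling, 1 with the Y-linked covariate, 13 without a filter, 21 without composition scaling, 80 and 164 with limma on log2(FPKM + 0.1) and log2(FPKM + 1), 490 with DESeq2 and 870 with voom and embryo weights. At an unadjusted p under 0.05 these fits held 684 to 3834 genes. Leaving out 1 of the 5 morulae gave 0 to 128. Chosen after seeing the data, leaving out non-KO morulae 1 and 3 together gave 157 (16 shared with the 42), and leaving out 2 and 3 together 27 (12 shared). With limma on log2(FPKM + 1) the split turned to 106 higher and 58 lower.

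The 167 genes whose KO effects differed between the crosses became 0 with the 10 morulae alone, 10 with ERCC scaling, 271 with limma on log2(FPKM + 1), 795 with embryo weights and 894 with DESeq2. Leaving out 1 embryo gave 19 to 707, and leaving out non-KO morulae 1 and 3 together 929. The spike-in difference ranged from -0.37 to 0.33 without 1 embryo, and was -0.02 without KO embryo 1. The cause of these changes was not tested, other than that the fits of 5 or 10 morulae hold fewer samples.

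Deviations from the group mean of embryos with the same replicate number correlated at -0.0957 and 0.107. With 2 KO embryos, the deviations of KO embryo 2 mirror those of KO embryo 1. These values therefore cannot show whether the replicate numbers pair the embryos. With the number as a block 8 genes were called (2 higher, 6 lower). Of the values of the named genes that were not called, 1458 kept their direction and stayed short of the threshold, 30 passed it and 48 changed direction without passing it. Of the list medians that were compared, which do not cover every list and alternative, 103 moved by less than the spread and 23 by more. For 14 of the 20 lists other than the Y-linked one, the median changed sign when 1 of the 5 morulae was left out. The smaller KO library, with 7486125 gene counts, limits what can be seen of genes with few reads.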
